A study of Homo sapiens with 6 samples.

Results

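The 10 genes described here, HIF1A, EPAS1, EGLN1, EGLN3, NDRG1, BNIP3, BNIP3L, ANKRD37, VEGFA and CA9, encode the oxygen-sensitive subunits of hypoxia-inducible factor (HIF), enzymes that control them and well known HIF target genes. They were chosen by name, and every probe set annotated to 1 of them alone was read, which gave 21 probe sets for 9 genes, out of 19775 genes with such a probe set. CA9, a cell surface carbonic anhydrase, was not analysed here, since the annotation used names no probe set for it. HT29, a line of human colon adenocarcinoma cells, was profiled on Affymetrix HG U133 PLUS 2.0 arrays to find genes deregulated along with resistance to methotrexate (MTX), an antifolate that blocks dihydrofolate reductase. RNA came from 3 samples of HT29 cells that resist 10 μM MTX and from 3 samples of MTX-sensitive cells. The resistant cells are 1 population, obtained earlier by growth in stepwise higher MTX and kept in a selective medium that lacks hypoxanthine, thymidine and glycine and holds dialyzed serum. The sensitive cells grew in Ham's F12 with undialyzed serum, so medium and resistance cannot be told apart. No source used here says that the samples of a group were separate cultures, and the p-values then measure only how far these arrays spread, which could be technical spread. Neither group was labelled as grown under low oxygen.

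In cells with enough oxygen, prolyl hydroxylases of the EGLN family hydroxylate HIF-alpha subunits, which are then bound by the VHL ubiquitin ligase and degraded. When oxygen or the cofactors of these enzymes are short, the alpha subunits persist, pair with ARNT and bind the letters ACGTG or GCGTG near genes for glycolysis, pH control, blood vessel growth and mitophagy. This control acts mainly on the protein, whereas the arrays measured mRNA, and in tumours of the colon it is best known from poorly perfused regions.

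Among the 10 genes, BNIP3L and NDRG1 stood more than 4-fold higher in resistant than in sensitive cells, EPAS1 2.85-fold and ANKRD37 1.75-fold higher. HIF1A was 1.23-fold higher, with an adjusted p next to the threshold. VEGFA, EGLN1 and EGLN3 did not pass the test, though VEGFA and EGLN1 passed under each of the 3 other scalings run, and BNIP3 was too dim to be tested. Under those scalings 1907 to 2499 genes of the whole table were higher, against 1472 in the main fit. Of the 8 tested genes 5 were higher and none was lower at an adjusted p under 0.05 from limma, and all 8 changes were positive, so none was lower at an unadjusted p either. Over all 11835 tested genes 12.4% were higher and 22.5% were lower by the same rule, so that 34.9% were called. The median log2 fold change of the 8 genes was 0.57, against -0.10 over all tested genes. With a change of at least 3-fold as well, 2 of the 8 were called higher, BNIP3L and NDRG1, and none was called lower. Over all tested genes 230 (1.94%) were called higher and 259 were called lower by that rule. The groups did not overlap for 6 of the 8 genes, and they did not overlap for 46.2% of all tested genes. The 10 genes were picked with earlier results of these data known, so these counts are a description.

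**Figure D1:**
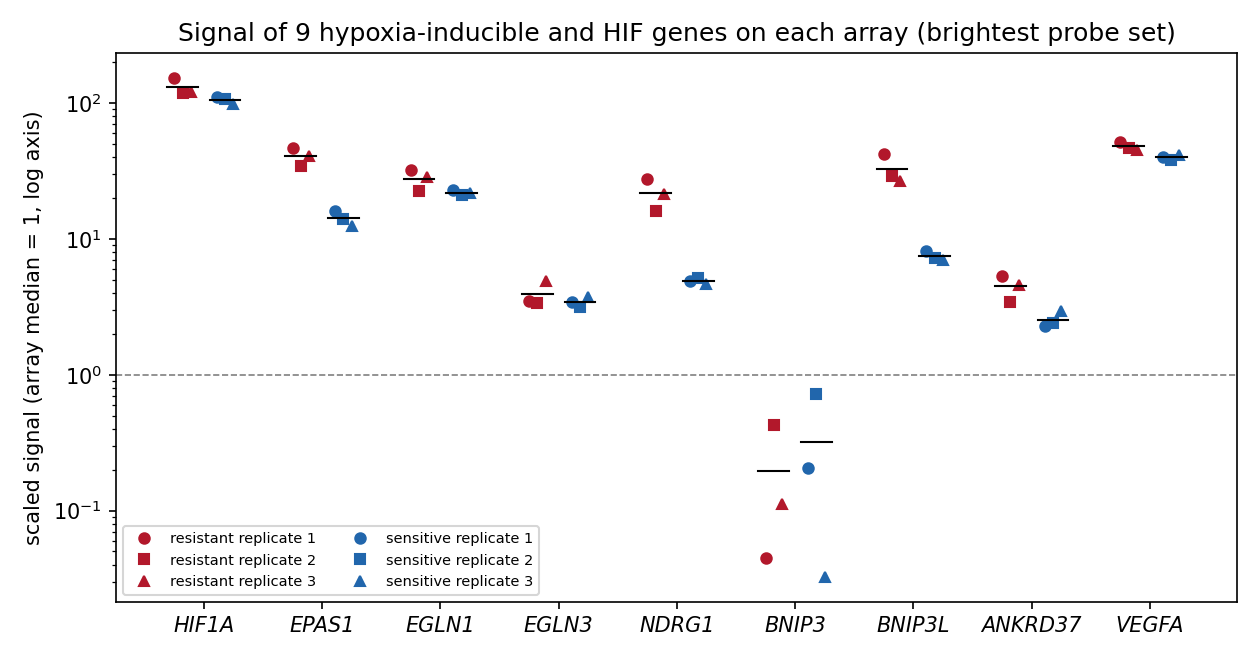
Scaled signal on a log axis for the brightest probe set of each of the 9 measured genes, with 1 point for each array, resistant cells in red left of sensitive cells in blue, black bars for group means and a dashed line at the array median. The groups lie furthest apart for EPAS1, NDRG1 and BNIP3L, and every BNIP3 value lies under the array median.

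A scaled signal is the deposited signal divided by the median of its array, so that 1 is the median probe set, and it cannot be compared between probe sets. Changes are log2 fold changes of resistant over sensitive cells. The division left the median of all genes at -0.10, whereas quantile normalization moved it to 0.02, and the split of called genes changed from 1472 higher and 2659 lower to 2499 higher and 2230 lower. The arrays had median signals of 13.3 to 16.9 in resistant and 14.2 to 15.4 in sensitive cells. Resistant replicate 1 had the lowest median and was the highest of the 3 resistant arrays for 7 of the 8 tested genes, as it was for 70.9% of all tested genes and 79.3% of those called higher. The ratio of 3' to 5' control signals was 1.25 ± 0.0698 in resistant and 1.14 ± 0.0220 in sensitive cells for ACTB (SD, n = 3 each; two-sided exact permutation p = 0.1, and no smaller p is possible with 3 against 3), and its part in the results was not tested. For GAPDH the ratio was 1.02 ± 0.0338 in resistant and 1.01 ± 0.0054 in sensitive cells (same permutation test, p = 0.4). Of 11 markers of colon epithelium 9 were bright enough to test, while CDX1 and CDX2 stayed under the array median on all arrays, and 1 marker was higher and 6 were lower in resistant cells. Of the 9 tested, 77.8% were called, against 34.9% of all tested genes. The summed signal of the 11 markers was 1598 to 1797 in resistant and 2061 to 2272 in sensitive cells. Of 12 measured markers of other cell types only 4 were bright enough to test, and 2 were higher and 1 was lower (75% called). Those higher were the collagen gene COL1A1 (log2 fold change 4.03, and 1.45 with the mean of its probe sets) and the actin gene ACTA2 (0.97, with adjusted p values of 0.051 without resistant replicate 1 and 0.059 without resistant replicate 2), and the monocyte gene CD14 was lower (-2.81). The other stromal markers COL1A2, COL3A1 and PDGFRB were too dim to test and overlapped between the groups, and PTPRC and ALB lay under the array median on all arrays. The summed signal of the 12 markers was 20.0 to 23.1 in resistant and 7.90 to 11.0 in sensitive cells, and without COL1A1 it was 8.51 to 11.2 in resistant and 7.01 to 10.5 in sensitive cells. Their part in the results was not tested, and in bulk RNA fewer cells of a type and less RNA per cell cannot be told apart.

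HIF1A encodes HIF-1α, the alpha subunit found in most cells. Its probe set 200989_at had scaled signals of 153, 118 and 121 in resistant cells and 111, 107 and 98.4 in sensitive cells. All 3 resistant arrays lay above all 3 sensitive ones, and resistant replicate 1 stood apart from the rest. The log2 fold change was 0.30 with a standard error (SE) of 0.12, and the adjusted p from limma was 0.0495 over genes and 0.058 over probe sets. Of 19 alternative settings 10 ended the call, and the change lay between 0.19 and 0.47. Without resistant replicate 1 it was 0.19 (adjusted p = 0.19), without resistant replicate 3 it was 0.35 (adjusted p = 0.052), without sensitive replicate 2 it was 0.32 (adjusted p = 0.10) and without sensitive replicate 3 it was 0.25 (adjusted p = 0.21).

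EPAS1 encodes HIF-2α, a second alpha subunit with more restricted expression, known from blood vessels, kidney and gut epithelium. Its brightest probe set, 200878_at, had scaled signals of 46.9, 34.2 and 40.6 in resistant cells and of 16.1, 14.0 and 12.5 in sensitive cells. The lowest resistant array was above the highest sensitive one by more than the spread within either group. EPAS1 rose, with a log2 change of 1.51 (SE 0.16, adjusted p = 1.3e-09, limma). A second probe set, 200879_s_at, lay close to the array median, at 2.44, 1.41 and 2.18 in resistant cells and 1.36, 1.47 and 1.14 in sensitive cells. There the groups overlapped and the change of 0.57 did not pass (adjusted p = 0.23). The third, 241055_at, was under the array median on all 6 arrays and was not tested. With the mean of both tested probe sets the change was 1.04 (adjusted p = 0.00025). Within each array the log2 difference between EPAS1 and HIF1A was higher by 1.21 (SE 0.085) in resistant cells. Dividing a whole array by a factor leaves this difference unchanged, whereas quantile normalization can move it. The comparison was made after the values were seen.

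EGLN1 and EGLN3 are prolyl hydroxylases that mark HIF-alpha subunits for degradation, and both are themselves HIF targets. EGLN1, read by 223046_at, had scaled signals of 32.1, 22.6 and 28.8 in resistant cells and 22.8, 21.1 and 21.9 in sensitive cells. Resistant replicates 1 and 3 lay above the sensitive arrays and resistant replicate 2 lay among them. The log2 difference was 0.33 (95% interval -0.0014 to 0.66, adjusted p = 0.12). Without resistant replicate 2 it was 0.47 (adjusted p = 0.022). It also passed under the other scalings, at 0.50 with quantile normalization (adjusted p = 0.0016), at 0.37 with the deposited signals unscaled (adjusted p = 0.025) and at 0.43 with scaling to the median of brighter probe sets (adjusted p = 0.0049). The other tested EGLN1 probe sets did not pass, with 0.22 for 221497_x_at and 0.03 for 224314_s_at, and 223045_at was too dim. EGLN3 had scaled signals of 3.51, 3.40 and 4.91 in resistant cells and 3.45, 3.15 and 3.75 in sensitive cells by 219232_s_at. The groups overlapped, with a log2 difference of 0.17 (95% interval -0.29 to 0.64, adjusted p = 0.60). Its second probe set, 222847_s_at, gave 3.61, 3.48 and 3.93 in resistant and 2.73, 2.86 and 3.09 in sensitive cells. Here the groups did not overlap, and the difference of 0.35 did not pass the test (adjusted p = 0.24).

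NDRG1 is a stress-responsive cytoplasmic protein whose mRNA is a widely used marker of hypoxia. Its probe set 200632_s_at had scaled signals of 27.7, 15.9 and 21.6 in resistant cells and 4.87, 5.15 and 4.69 in sensitive cells. The sensitive arrays lay close together, the resistant ones spread more widely, and the groups were far apart. NDRG1 rose 4.32-fold, a log2 fold change of 2.11 (SE 0.18, adjusted p = 4.1e-12, limma). It lay between 1.91 and 2.32 under 19 alternatives and lost its call only in the methods' t-test with unequal variances (adjusted p = 0.096).

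BNIP3L and BNIP3 are paralogous proteins of the outer mitochondrial membrane that recruit LC3-family proteins and so direct mitochondria to autophagy. BNIP3L had scaled signals of 42.2, 29.0 and 26.9 in resistant cells and 8.18, 7.25 and 6.97 in sensitive cells by 221478_at. Every resistant array was well above every sensitive array. The gene rose 4.30-fold, a log2 fold change of 2.10 (SE 0.18, adjusted p = 1.2e-12, limma). A second probe set, 221479_s_at, had 19.8, 10.6 and 11.0 in resistant cells and 4.70, 3.64 and 3.44 in sensitive cells. It gave a log2 fold change of 1.76 (adjusted p = 2.5e-06), so both probe sets of BNIP3L rose. BNIP3 was dim on every array. Its probe set 201848_s_at had scaled signals of 0.0451, 0.425 and 0.112 in resistant cells and 0.204, 0.72 and 0.0325 in sensitive cells. The other, 201849_at, had 0.0376, 0.125 and 0.521 in resistant cells and 0.345, 0.1 and 0.247 in sensitive cells. Both lay under the array median on all 6 arrays, with no order between the groups, and no detection calls were used here, so no change of BNIP3 can be given. BNIP3L and NDRG1 had changes of nearly the same size, and their log2 difference within arrays shifted by -0.01 (SE 0.17), a pair chosen after the values were seen.

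ANKRD37 encodes a small ankyrin repeat protein and is a direct HIF target. Its probe set 227337_at had scaled signals of 5.38, 3.46 and 4.61 in resistant cells and 2.30, 2.40 and 2.92 in sensitive cells. The groups did not overlap, though resistant replicate 2 came near the sensitive arrays. ANKRD37 rose, with a log2 change of 0.80 (SE 0.24, adjusted p = 0.0084, limma), and 4 of 18 alternatives ended the call. They were testing without the filter on dim signals (adjusted p = 0.053), the methods' t-test with equal (0.084) and unequal variances (0.14), and the 3-fold threshold. A second probe set, 242548_x_at, was under the array median on all arrays.

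VEGFA encodes the growth factor that drives sprouting of blood vessels. Its brightest probe set, 210512_s_at, had scaled signals of 52.0, 46.9 and 45.0 in resistant cells and 40.3, 38.4 and 41.4 in sensitive cells. The groups did not overlap, yet the log2 difference of 0.26 did not pass (95% interval -0.03 to 0.55, adjusted p = 0.16). It passed with quantile normalization at 0.45 (adjusted p = 0.0013), with scaling to the median of brighter probe sets at 0.36 (adjusted p = 0.0047) and with unscaled deposited signals at 0.30 (adjusted p = 0.027). The 3 other probe sets, 212171_x_at, 210513_s_at and 211527_x_at, gave 0.07, 0.01 and 0.06 with overlapping groups, and these passed under none of the scalings run.

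**Figure D2:**
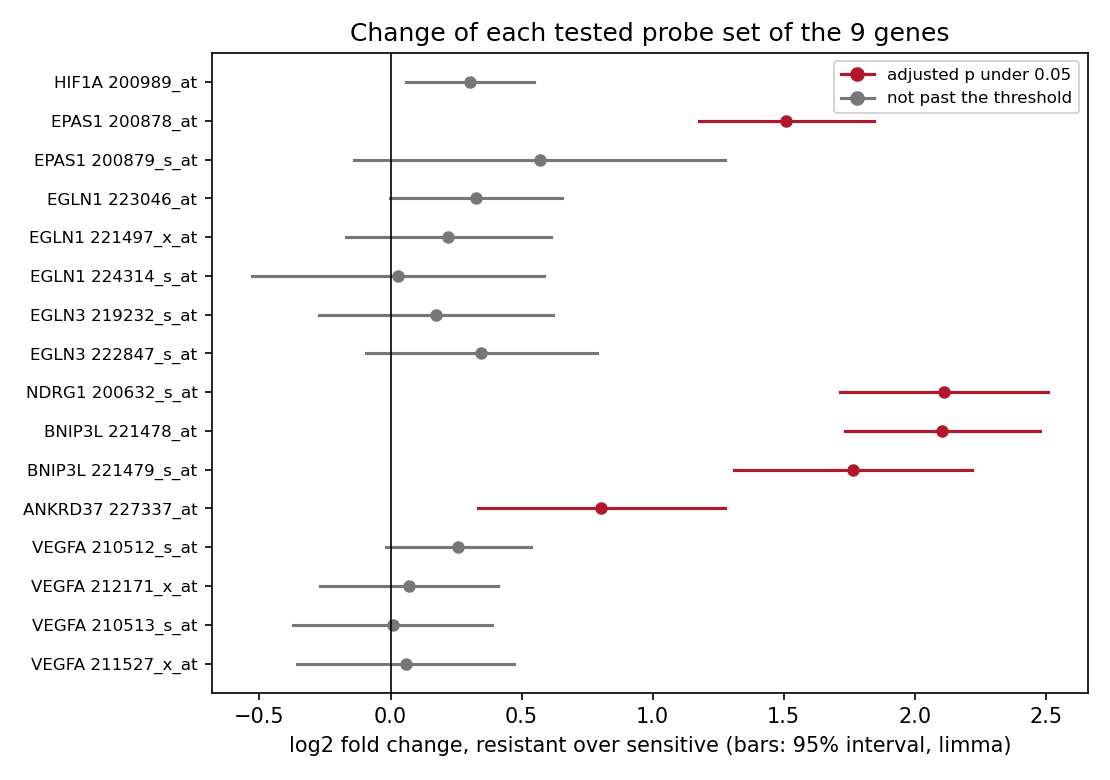
Log2 fold change of resistant over sensitive cells for the 16 tested probe sets of the 8 tested genes, as points with 95% intervals from limma; red points passed an adjusted p under 0.05 over all 26833 tested probe sets. The 5 red points are EPAS1 200878_at, NDRG1, both BNIP3L probe sets and ANKRD37, and the intervals of all VEGFA and EGLN3 probe sets include 0.

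Of the 21 probe sets 16 were bright enough to test, and 5 of these were higher and none was lower, against 9.52% higher and 19.5% lower over all 26833 tested probe sets. Probe sets of 1 gene share transcripts and are not independent. The gene-level count of 5 was 7 under each of the 3 other scalings, through EGLN1 and VEGFA. Genes called higher over the whole table also rose, from 1472 to 2499 with quantile normalization and 1907 with unscaled deposited signals. With scaling to the median of brighter probe sets they numbered 2291. The count among the 10 genes was 4, through HIF1A, without resistant replicate 1 or 3 and without sensitive replicate 2 or 3. Limma without the trend and the mean of all probe sets also gave 4, through HIF1A. With the methods' t-test with unequal variances the count was 0, where 76 genes were higher and 134 lower over the whole table. In that test 5 of the 8 passed an unadjusted p under 0.05, but HIF1A was not among them, so they are not the same 5 that limma called. The adjusted p was 0.051 for EPAS1, 0.075 for BNIP3L, 0.096 for NDRG1, 0.14 for ANKRD37 and 0.25 for HIF1A.

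HIF binds ACGTG or GCGTG, and the 250 bases before each gene start were searched for these letters on both strands in RefSeq promoters of GRCh38.p14. Promoters were matched for HIF1A, EPAS1, EGLN1, EGLN3, BNIP3, ANKRD37 and CA9. EPAS1 and ANKRD37 rose, EGLN1 was not called and BNIP3 was too dim to test. Stretches of 60 bases are shown for these genes, so that the letters can be set beside the signals. They are written 5′ to 3′ on the strand of the gene, with the matches, read on either strand and merged where they overlap, in capitals. They lie at chr2:46297262-46297321 on the plus strand (EPAS1), chr4:185396661-185396720 on the plus strand (ANKRD37), chr1:231422288-231422347 on the minus strand (EGLN1) and chr10:131982015-131982074 on the minus strand (BNIP3).
EPAS1: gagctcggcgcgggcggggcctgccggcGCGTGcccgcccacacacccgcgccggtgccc
ANKRD37: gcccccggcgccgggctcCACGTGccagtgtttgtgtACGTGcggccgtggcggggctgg
EGLN1: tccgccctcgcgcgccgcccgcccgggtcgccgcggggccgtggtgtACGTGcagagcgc
BNIP3: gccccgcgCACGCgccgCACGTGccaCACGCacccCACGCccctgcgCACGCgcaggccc
BNIP3 had 6 matches at 5 separate places, ANKRD37 had 3 matches at 2 places, and EPAS1, EGLN1 and CA9 had 1 each. HIF1A had 1 match at 1 of its 2 starts, and EGLN3 had none in this window. Among all 35116 promoters 43.2% held at least 1 match and 18.5% held ACGTG, and of the promoters of the other HIF targets listed next 80.4% held at least 1. A match is a description of the letters and not a binding site.

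The rest of the pathway was read from lists of known regulators and targets. Of 43 other HIF targets 33 were tested, and 12 were higher, 7 were lower and 14 did not pass, with a median log2 fold change of 0.22. This is 57.6% called, against 34.9% of all tested genes. PLOD2, a lysyl hydroxylase that shapes collagen, had scaled signals of 67.5, 46.2 and 51.3 in resistant cells and 23.1, 19.4 and 20.8 in sensitive cells. It rose by 1.36 (SE 0.16, adjusted p = 6.4e-09, limma). MXI1, which opposes MYC, had 59.1, 43.2 and 38.7 in resistant cells and 21.8, 23.8 and 18.7 in sensitive cells, a rise of 1.12 (adjusted p = 8.4e-07). In both the groups were clearly apart and resistant replicate 1 was the highest array.

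Other targets fell. AK4, a mitochondrial adenylate kinase, had scaled signals of 10.5, 10.8 and 10.9 in resistant cells and 30.0, 27.1 and 26.5 in sensitive cells, a log2 fold change of -1.37 (adjusted p = 8.4e-09). PLIN2, which coats lipid droplets, had 0.707, 0.269 and 0.0592 in resistant cells and 15.0, 11.7 and 14.2 in sensitive cells, a log2 fold change of -5.92 (SE 0.48, adjusted p = 5.6e-13). Its resistant signals were all under the array median, so the size of the fall rests on dim values and lay between -6.75 and -3.47 under the alternatives. The remaining higher targets ranged from INSIG2 at 0.46 to BHLHE40, a transcriptional repressor, at 0.99. They included CA12, a carbonic anhydrase of the cell surface like CA9, at 0.60 (adjusted p = 0.0011). INSIG2 lost its call in 10 of 19 alternatives, among them leaving out any array but resistant replicate 3, with 0.31 without resistant replicate 1. The 5 remaining lower targets were the lipoprotein receptor VLDLR at -0.99 (adjusted p = 0.0078), JMJD6 at -0.64, the collagen prolyl hydroxylase P4HA2 at -0.42, RAB20 at -0.40 and the transferrin receptor TFRC at -0.28. VLDLR and JMJD6 kept their calls with any array left out. With single arrays left out P4HA2 (-0.33 to -0.53) stayed called only without resistant replicate 1, RAB20 lost its call without resistant replicate 3 or any sensitive array (-0.32 to -0.45 there), and TFRC without resistant replicate 2 (-0.24) or sensitive replicate 3 (-0.21). ADM, the precursor of the vasodilator adrenomedullin and a common hypoxia marker, was at 0.03 and did not pass (adjusted p = 0.92).

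**Figure D3:**
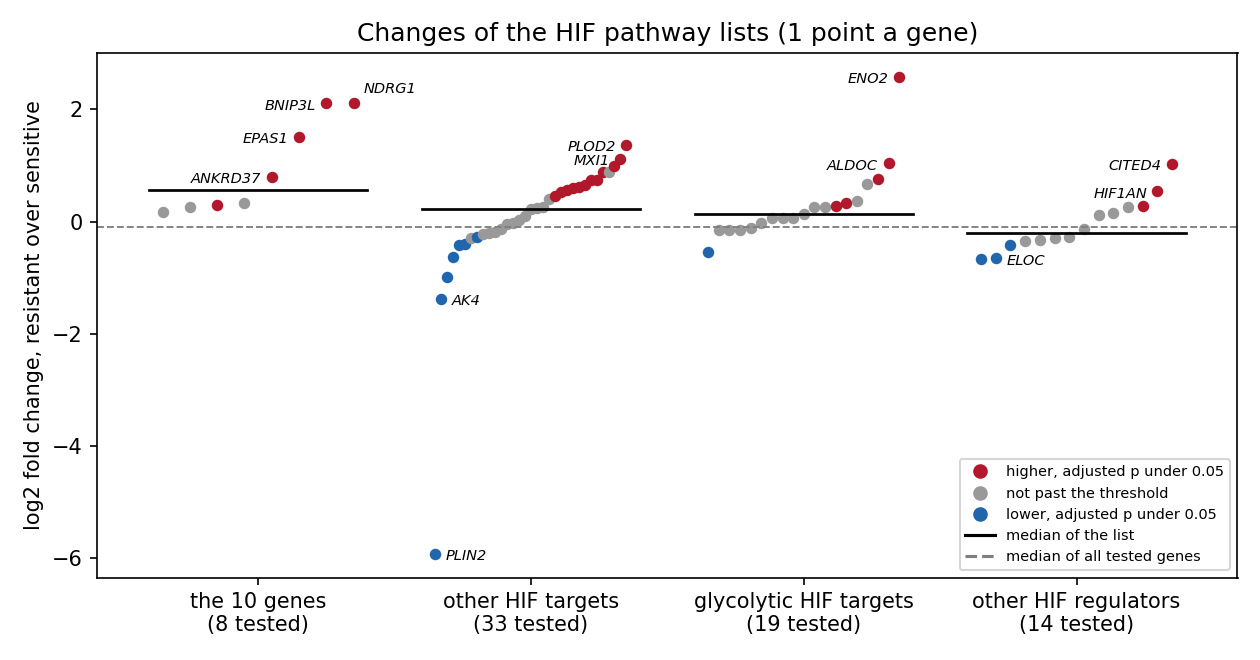
Log2 fold change of resistant over sensitive cells for each tested gene of the 10 genes, the other HIF targets, the glycolytic HIF targets and the other HIF regulators, with black bars for list medians, a dashed line for the median of all tested genes and colours for the call at an adjusted p under 0.05. The medians are 0.57, 0.22, 0.13 and -0.21, against -0.10 over all genes, and PLIN2 at -5.92 lies far below the other targets.

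Of 20 measured glycolytic HIF targets 19 were tested, and 5 were higher, 1 was lower and 13 did not pass, with a median of 0.13. The share called was 31.6%, near the 34.9% of all tested genes. ENO2, an enolase typical of neurons, had scaled signals of 14.1, 9.77 and 14.8 in resistant cells and 2.12, 2.69 and 1.67 in sensitive cells. It rose 5.98-fold, a log2 fold change of 2.58 (SE 0.21, adjusted p = 7.3e-13, limma), and kept its call under all 19 alternatives. The brain aldolase ALDOC rose by 1.04 (adjusted p = 8.7e-05) and GPI, which converts glucose 6-phosphate to fructose 6-phosphate, by 0.75 (adjusted p = 7.0e-07). PFKFB3, which makes the activator of phosphofructokinase, was lower at -0.54 (adjusted p = 0.012), and without resistant replicate 2 it was at -0.41 (adjusted p = 0.066) and without sensitive replicate 3 at -0.52 (adjusted p = 0.054). Of the abundant enzymes PGAM1 at 0.32 (adjusted p = 0.0091) and ALDOA at 0.27 (adjusted p = 0.015) were higher as well. PGAM1 lost its call without resistant replicate 3 (0.27) or sensitive replicate 2 (0.29), and ALDOA without resistant replicate 1 (0.22) or sensitive replicates 2 or 3 (0.24 in both). PGK1 at 0.07, LDHA at -0.02, ENO1 at -0.12 and the glucose transporter SLC2A1 at 0.27 (adjusted p = 0.22) did not pass.

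Of 17 measured other HIF regulators 14 were tested, and 3 were higher, 3 were lower and 8 did not pass, with a median of -0.21. The share called was 42.9%, against 34.9% over all tested genes. HIF1AN, the asparaginyl hydroxylase that blocks the HIF activation domain, had scaled signals of 18.8, 17.4 and 20.4 in resistant cells and 12.6, 12.9 and 13.3 in sensitive cells. It rose by 0.54 (SE 0.16, adjusted p = 0.0089). ELOC, the elongin C subunit of the VHL ligase, had 113, 93.8 and 110 in resistant cells and 176, 160 and 162 in sensitive cells, a log2 fold change of -0.66 (adjusted p = 1.8e-05). These groups did not overlap. Other subunits of the ligase were called in different directions, with the scaffold CUL2 lower at -0.41 (adjusted p = 0.042) and elongin B, ELOB, higher at 0.28 (adjusted p = 0.046). Both calls were ended by 10 of 19 alternatives. Single arrays left out put CUL2 between -0.36 and -0.46, called only without resistant replicate 1, and ELOB between 0.22 and 0.37, called without resistant replicate 3 or sensitive replicate 1. VHL itself was at -0.14 and ARNT at 0.11, neither past the test. CITED2 and CITED4 compete with HIF for the coactivators p300 and CBP, and they were called in opposite directions. CITED2 was lower at -0.67 (adjusted p = 0.0097; without resistant replicate 3 it was -0.53, adjusted p = 0.0504) and CITED4 was higher at 1.03 (adjusted p = 0.033). CITED4 had 2.85, 2.64 and 3.29 in resistant cells and 0.549, 2.45 and 2.18 in sensitive cells, so its change leaned on sensitive replicate 1, and without that array it was 0.34 (adjusted p = 0.46). A total of 12 of 18 alternatives ended the call, other scalings among them, and it was also lost without resistant replicate 1 (1.04, adjusted p = 0.11) and without resistant replicate 2 (1.10, adjusted p = 0.11). Of the other regulators HIF3A, ARNT2 and EGLN2, another prolyl hydroxylase, were too dim to test.

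The partners of BNIP3L in mitophagy were read next. Of 17 tested mitophagy receptors and LC3-family genes 2 were higher, 1 was lower and 14 did not pass, with a median of 0.09. The share called was 17.6%, against 34.9% over all tested genes. The LC3-family gene GABARAPL1 was higher at 0.56 (adjusted p = 0.044) and its relative MAP1LC3B was lower at -0.55 (adjusted p = 0.0062; without sensitive replicate 1 it was -0.48, adjusted p = 0.053). PINK1, the kinase of the other main mitophagy route, was higher at 0.54 (adjusted p = 0.038), with 11.5, 7.64 and 5.83 in resistant cells and 4.93, 6.03 and 5.66 in sensitive cells. Its groups overlapped, and without resistant replicate 1 the difference was 0.28 (adjusted p = 0.25). The calls of GABARAPL1 and PINK1 were ended by 11 and 10 of 19 alternatives, and leaving out single arrays put GABARAPL1 between 0.47 and 0.72 and PINK1 between 0.28 and 0.76.

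Relatives of the 10 genes were read beside them. Of 20 measured relatives 12 were bright enough to test, and 4 were higher, 1 was lower and 7 did not pass. The share called was 41.7%, against 34.9% over all tested genes. NDRG3, a paralogue of NDRG1, had scaled signals of 43.8, 33.2 and 31.7 in resistant cells and 37.2, 32.3 and 30.7 in sensitive cells, with a log2 difference of 0.11 (adjusted p = 0.64). The log2 difference between NDRG1 and NDRG3 within arrays shifted by 2.00 (SE 0.18), again a pair chosen after the values were seen. NDRG4 was called higher at 1.74 (adjusted p = 0.028), but its signals of 2.31, 1.43 and 1.63 in resistant and 0.725, 0.167 and 1.20 in sensitive cells were near the array median, and 8 of 18 alternatives ended the call. It was 1.54 without resistant replicate 1 (adjusted p = 0.15), 1.88 without resistant replicate 2 (adjusted p = 0.072) and 0.91 without sensitive replicate 2 (adjusted p = 0.17). VEGFB, a growth factor related to VEGFA that is not a typical hypoxia gene, had 10.4, 6.49 and 6.01 in resistant cells and 3.35, 3.36 and 1.84 in sensitive cells. It rose by 1.43 (SE 0.24, adjusted p = 6.9e-06, limma), and the groups were apart. NRP1, a coreceptor for VEGFA, had 2.09, 1.99 and 3.19 in resistant cells and 5.18, 5.45 and 5.71 in sensitive cells. It fell, at -1.20 (adjusted p = 9.1e-05).

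To see whether the 5 called genes moved along with their surroundings on the chromosome, 3 tested genes on each side of each were read. For scale, 34.9% of all tested genes were called, with 12.4% higher and 22.5% lower. Next to EPAS1 on chromosome 2 the genes RHOQ, at 0.98 (adjusted p = 2.4e-05), and PIGF, at 0.59 (adjusted p = 0.0029), were higher, and the other 4 lay between 0.13 and 0.38 without passing. The nearest on each side, PRKCE at 0.23 and ATP6V1E2 at 0.38, were among those 4. Next to NDRG1 on chromosome 8 none was higher, while ST3GAL1, the nearest on 1 side, was lower at -1.52 (adjusted p = 4.7e-09) and PHF20L1 at -0.53 (adjusted p = 0.0097; -0.49 without sensitive replicate 1, adjusted p = 0.062, and -0.50 without sensitive replicate 3, adjusted p = 0.058). Next to BNIP3L, also on chromosome 8, PPP2R2A at 0.62 and KCTD9 at 0.64 were higher and DPYSL2 was lower at -0.54 (-0.32 without resistant replicate 3, adjusted p = 0.17). With the mean of its probe sets PPP2R2A was at 0.22 (adjusted p = 0.37). No gene next to HIF1A passed, and next to ANKRD37 CFAP97 was lower at -0.76 (adjusted p = 4.8e-05) and TLR3, which was dim, at -1.76 (adjusted p = 0.014; -1.15 without resistant replicate 1, adjusted p = 0.052, and -1.59 without sensitive replicate 1, adjusted p = 0.083). The neighbours of these 5 genes that were called higher all lay next to EPAS1 or BNIP3L, and each had a smaller change than the gene beside it. Next to HIF1A, itself at 0.30, PRKCH at 0.49 and SLC38A6 at 0.39 had larger changes without passing. TLR3 moved further than ANKRD37, itself at 0.80, in the other direction. Copy number was not analysed here.

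**Figure D4:**
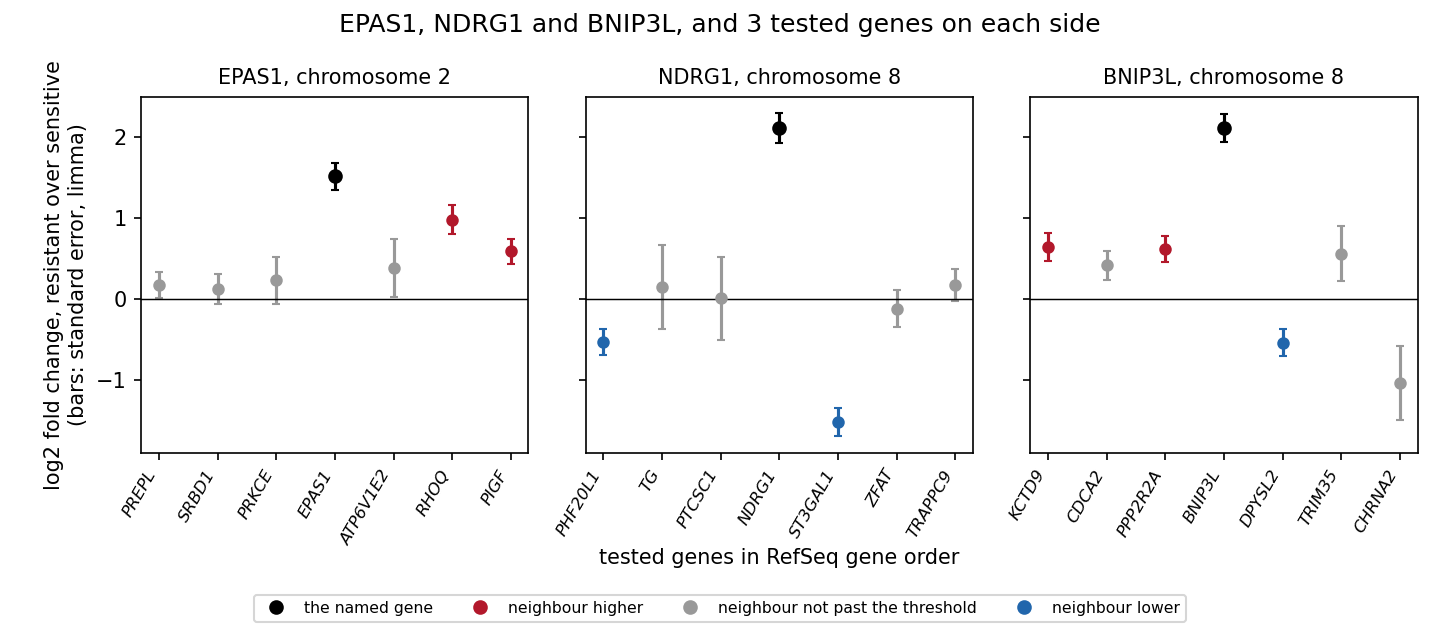
Log2 fold change of resistant over sensitive cells, with standard errors from limma, for EPAS1, NDRG1 and BNIP3L in black and the 3 tested genes on each side in RefSeq gene order, coloured by call. EPAS1 at 1.51 has RHOQ at 0.98 and PIGF at 0.59 on 1 side, beyond ATP6V1E2 at 0.38, which did not pass. NDRG1 at 2.11 stands beside ST3GAL1 at -1.52, and BNIP3L at 2.10 beside PPP2R2A at 0.62 and DPYSL2 at -0.54.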

How the data were processed

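The deposited values are linear MAS5 signal intensities of 54675 probe sets on 6 arrays (MAS5 version not given in the sources used here). Their later GeneSpring steps, which are division by array medians and by the sensitive median, a filter on control strength, a t-test with Benjamini-Hochberg adjustment and a 3-fold threshold, come after these values. Groups follow the submitters' labels.

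The 62 control probe sets were left out of tests. Platform annotation gave 41091 probe sets 1 gene, and 41037 of them were updated through Entrez identifiers with a RefSeq table of GRCh38.p14. Probe sets of several genes (1801) or of none were not named. Each signal was divided by its array median, 0.01 was the floor, and probe sets whose scaled signal averaged 1 or more were tested on the log2 scale with limma 3.58.1 in R 4.3.3 (lmFit, then eBayes with trend), with Benjamini-Hochberg adjustment over all 26833 probe sets, or over 11835 genes with the brightest probe set of each. The fit was checked on simulated data with independent normal noise, with bounds on bias, false calls and the recovery of large changes. The share of small changes recovered had no bound. Figures used matplotlib 3.10.9.

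The 10 genes, the lists and the tests were chosen with earlier results of these data known. Named are all probe sets of the 10 genes, the 4 largest called changes of each HIF list, the 3 largest of the mitophagy list and of the relatives, and neighbours of called genes. Genes of the lists named beyond these were chosen after their values were seen. CA9 and some other genes of the lists were not analysed here and are not reported. Alternatives covered scaling, low signals, the filter, the test, the threshold, a replicate block, each array left out and the probe set taken for a gene. No batch was used here. The number of arrays limits the precision.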

Additional observations from a re-analysis of the deposited data

How the results depend on the processing

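The direction of EPAS1, NDRG1, BNIP3L, ANKRD37 and HIF1A held under every alternative run. Main counts, higher and lower, were 2554 and 5237 for all probe sets, 5 and 0 for probe sets and for genes among the 10, 3 and 3 for other HIF regulators, 12 and 7 for other HIF targets and 5 and 1 for glycolytic targets. With quantile normalization 4188 probe sets in all, 8 probe sets of the 10 genes and 9 glycolytic targets were higher. Deposited signals with no further scaling gave 8 higher probe sets of the 10 genes, and scaling to the median of brighter probe sets gave 8 and 3878 in all. Each of these 3 scalings gave 7 higher genes of the 10. Under them 1907 to 2499 genes were higher in all, against 1472 in the main fit. With no filter 3 of the 10 genes, 1 regulator and 3 glycolytic targets were higher. Limma without the trend gave 3366 lower probe sets, 1 regulator higher, 4 targets lower and 3 glycolytic targets higher. The methods' t-test with equal variances gave 826 higher and 1879 lower probe sets, 3 higher probe sets and 3 higher genes of the 10, 1 regulator higher, 4 targets higher and 3 lower, and 2 glycolytic targets higher and 0 lower. With unequal variances it gave 81 and 136 probe sets, 0 higher probe sets and 0 higher genes of the 10, 0 and 0 regulators, 0 and 1 targets, and 1 and 0 glycolytic targets. Also asking for 3-fold left 418 and 509 probe sets, 3 probe sets and 2 genes of the 10, 0 and 0 regulators, 0 and 1 targets, and 1 and 0 glycolytic targets. The mean of all probe sets gave 1 regulator higher and 2 glycolytic targets lower. The cause of these moves was not tested.

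With single arrays left out, regulators higher ranged over 1 to 3 and lower over 1 to 7 (7 without resistant replicate 1), targets lower over 4 to 8, and glycolytic targets higher over 3 to 7 and lower over 0 to 1. The direction turned in probe sets near 0, with lowest and highest values of -0.31 and 0.33 for EGLN1 224314_s_at, -0.030 and 0.15 for VEGFA 212171_x_at, -0.12 and 0.084 for 210513_s_at and -0.10 and 0.23 for 211527_x_at.

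Replicate numbers are shared by the groups. Deviations of same-numbered arrays correlated at 0.14, 0.0072 and 0.079, and those of differently numbered arrays between -0.11 and 0.033. The arrays were not taken as pairs in the main fit. A replicate block gave 5 lower regulators, with 1775 genes higher and 3267 lower in all, and EGLN1 passed (0.33, adjusted p = 0.043).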

Other observations

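Genes next to EGLN1 on chromosome 1, which were read although EGLN1 itself did not pass, gave 3 calls on 1 side, chosen for mention after their values were seen. Over all tested genes 34.9% were called. Each of the 3 had a larger change than EGLN1, which was at 0.33. SIPA1L2 was higher at 1.32 on the log2 scale (adjusted p = 7.1e-08 from limma), NTPCR at 0.98 (adjusted p = 1.2e-05) and TSNAX at 0.47 (adjusted p = 0.012; 0.45 without sensitive replicate 2, adjusted p = 0.073, and 0.44 without sensitive replicate 3, adjusted p = 0.069). The 3 tested genes on the other side, GNPAT, EXOC8 and SPRTN, lay between -0.25 and -0.05 and did not pass. No gene next to EGLN3 or VEGFA passed.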
